A study of Mus musculus with 4 samples.

Results

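Glycolysis and the transcriptional response to low oxygen were described in undifferentiated fibroblast lines through 42 named genes, 23 of glycolysis and 19 of the hypoxia-inducible factor (HIF) pathway. Members were matched by symbol to the array's annotation, and a gene was read from the brightest of its probe sets. Of the 42 members, 38 had such a probe set and 36 were bright enough to be tested, among 11056 genes tested of 18193 in all. RNA came from 3T3-MEFs, mouse embryonic fibroblasts passaged until they became a continuously growing line, harvested at confluence before any stimulus to become adipocytes. Wild-type cells gave 2 arrays and SMRTmRID cells 2 arrays, all single-colour Affymetrix arrays labelled with biotin. SMRT, a corepressor, helps nuclear receptors to silence their target genes, and the SMRTmRID cells derive from mice with a mutation in its receptor interaction domains. The design asks how the mutant cells differ from wild-type cells before differentiation. Strain, age, number of embryos, number of lines and oxygen supply were not given in the sources used here. The arrays of a genotype are called technical replicates, so every p-value below measures only the spread between such arrays, and genotype cannot be told apart from the particular line that was grown.

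Glycolysis splits glucose into pyruvate in the cytosol, and fibroblasts in culture use it heavily even when oxygen is present. HIF is a pair of proteins, an alpha subunit (HIF-1alpha, or HIF-2alpha encoded by Epas1) and the stable partner ARNT. With oxygen, prolyl hydroxylases of the Egln family mark the alpha subunit, VHL binds the mark and the subunit is degraded; without oxygen it persists and switches on genes of glucose uptake, glycolysis, lactate export, blood vessel growth and mitochondrial removal. Because that control acts on the protein, transcript levels of the subunits do not give its activity. Low oxygen is known to hold back the differentiation of adipocyte precursors.

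HIF and ARNT bind a short core, ACGTG or GCGTG. Promoters are shown for the HIF targets of the list that differed at least 2-fold between the genotypes and had an entry in the RefSeq promoter table, and for Slc16a3, a lactate exporter added after its values were seen because it had the greatest difference of all members. Each sequence runs 5′ to 3′ on the gene's strand from 250 bases before to 50 bases after the annotated start, in build GRCm38.p6, and capitals mark the core on either strand. The windows are chr7:110627407-110627706 (+ strand) for Adm, chr7:138909457-138909756 (- strand) for Bnip3, chr8:45999801-46000100 (- strand) for Ankrd37, chr6:71632868-71633167 (- strand) for Kdm3a, chr17:46032328-46032627 (- strand) for Vegfa and chr11:120948817-120949116 (+ strand) for Slc16a3. Kdm3a has 3 entries and Vegfa 2, and the first listed is shown.
Adm: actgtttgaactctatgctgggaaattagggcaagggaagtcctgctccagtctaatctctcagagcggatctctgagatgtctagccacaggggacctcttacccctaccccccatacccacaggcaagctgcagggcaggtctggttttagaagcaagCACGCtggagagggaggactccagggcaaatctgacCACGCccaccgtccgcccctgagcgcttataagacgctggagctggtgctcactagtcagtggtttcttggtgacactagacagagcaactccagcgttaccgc
Bnip3: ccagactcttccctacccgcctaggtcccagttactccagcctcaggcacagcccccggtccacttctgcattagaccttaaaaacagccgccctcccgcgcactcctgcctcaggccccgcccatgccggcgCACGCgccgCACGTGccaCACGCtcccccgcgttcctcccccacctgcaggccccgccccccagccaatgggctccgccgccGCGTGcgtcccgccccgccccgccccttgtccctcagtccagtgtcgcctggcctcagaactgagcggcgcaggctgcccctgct
Ankrd37: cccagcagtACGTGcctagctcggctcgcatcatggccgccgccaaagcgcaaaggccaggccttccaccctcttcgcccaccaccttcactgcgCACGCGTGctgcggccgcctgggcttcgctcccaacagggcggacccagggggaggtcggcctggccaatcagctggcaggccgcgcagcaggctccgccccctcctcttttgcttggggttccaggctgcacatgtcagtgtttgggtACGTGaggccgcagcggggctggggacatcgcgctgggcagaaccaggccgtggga
Kdm3a: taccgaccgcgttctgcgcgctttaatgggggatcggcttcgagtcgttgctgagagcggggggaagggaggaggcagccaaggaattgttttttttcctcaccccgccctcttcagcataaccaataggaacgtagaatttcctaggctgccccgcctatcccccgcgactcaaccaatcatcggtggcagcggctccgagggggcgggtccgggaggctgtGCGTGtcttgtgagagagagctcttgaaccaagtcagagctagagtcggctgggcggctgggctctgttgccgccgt
Vegfa: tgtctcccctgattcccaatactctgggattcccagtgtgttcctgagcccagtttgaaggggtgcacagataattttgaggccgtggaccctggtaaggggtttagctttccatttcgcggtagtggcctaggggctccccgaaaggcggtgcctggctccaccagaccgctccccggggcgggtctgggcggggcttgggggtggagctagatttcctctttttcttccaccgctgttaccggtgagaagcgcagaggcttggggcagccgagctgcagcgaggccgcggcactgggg
Slc16a3: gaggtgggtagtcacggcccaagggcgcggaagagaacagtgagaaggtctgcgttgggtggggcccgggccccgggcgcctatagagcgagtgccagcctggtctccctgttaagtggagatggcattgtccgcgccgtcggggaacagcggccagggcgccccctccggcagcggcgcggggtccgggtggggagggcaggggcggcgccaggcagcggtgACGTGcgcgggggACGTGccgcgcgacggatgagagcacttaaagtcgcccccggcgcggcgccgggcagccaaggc
Counting overlapping matches, the core stands at 5 places in the Bnip3 window, 4 in that of Ankrd37, 2 each in those of Adm and Slc16a3 and 1 in that of Kdm3a. The first Vegfa window has no match, and its second entry, not shown, has 2. The core is common: it is present in 43.8% of the 32851 windows of the table, all of 300 bases. Over the first entry of each gene it was found for 64.4% of 8971 tested genes, for 16 of 19 members that rose and for 4 of 6 that fell. These matches describe letters in a window and do not show binding.

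More members of both groups were higher in SMRTmRID than lower. Of 19 glycolysis members tested, 10 rose and 3 fell, and the other 6 missed the threshold; of 17 HIF members 10 rose and 4 fell, and the other 3 missed it. The test was limma on log2(signal + 16), with a Benjamini-Hochberg adjusted p under 0.05. In the same comparison 65.2% of all tested genes passed, 30.3% higher and 35.0% lower, so a passing test alone does not set a gene apart here. The arrays of one genotype lay wholly above or below those of the other for 31 of the 36 members, and for 81.5% of all tested genes. Differences are given throughout as SMRTmRID minus wild-type on that log2 scale, ± SE, and they understate changes from low signals. The median difference was 0.44 for glycolysis members and 0.83 for HIF members, against -0.045 for all tested genes. The HIF median was the value of Arnt, a subunit gene, and the 10 HIF targets tested had a median of 0.66. Relative to each gene's wild-type mean, the median glycolysis member stood at 0.44 and 0.41 on the SMRTmRID arrays and the median HIF member at 0.90 and 0.75. The difference between the groups of members was not tested. The glycolysis median was 0.26 among genes above the 75th percentile of signal. With each gene's second-brightest probe set it was 0.29, where a gene with only 1 probe set kept it. The glycolysis median was 0.28 when probe sets whose names carry no a, s or x suffix were taken first. With that last choice the HIF median was 0.47.

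**Figure D1:**
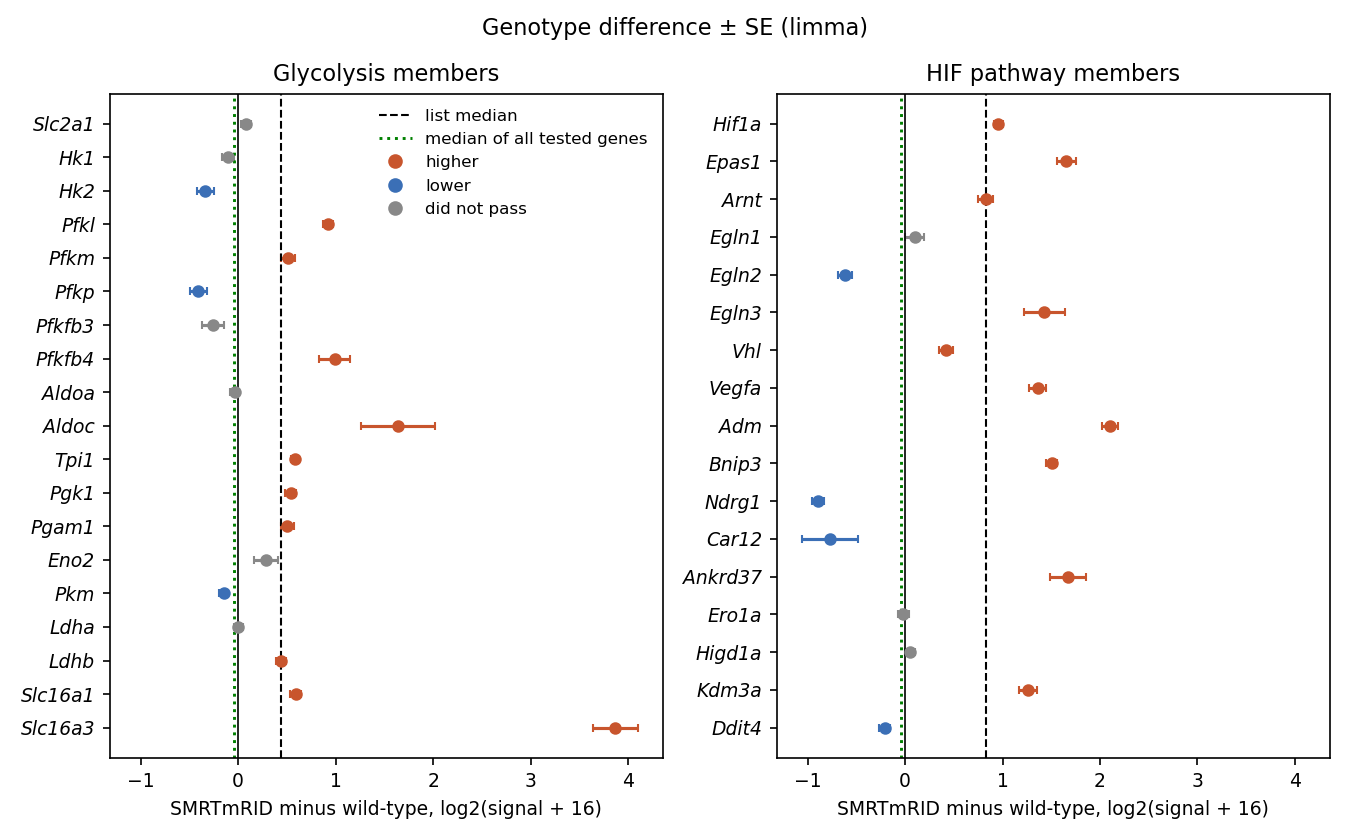
Difference between SMRTmRID and wild-type on the log2(signal + 16) scale for each tested member, with limma's standard error, in list order; colour gives the outcome of the test. The dashed line is the median of the list, 0.44 for glycolysis and 0.83 for the HIF pathway, and the dotted line that of all tested genes, -0.045.

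Of the glucose transporters among the members 1 was bright enough to test. Slc2a1, the main glucose transporter of proliferating cells, had signals of 1131 and 1206 on the wild-type arrays and 1227 and 1247 on the SMRTmRID arrays. Its SMRTmRID arrays lay just above the wild-type ones, but the difference of 0.082 ± 0.055 did not pass (adjusted p = 0.216, limma). Slc2a3, a high-affinity transporter, had signals of 0.988 and 3.22 on the wild-type arrays and 25.3 and 38.6 on the SMRTmRID arrays and stayed below the filter on mean signal of 35.1.

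The hexokinases trap glucose inside the cell. Hk1 had signals of 952 and 960.1 on the wild-type arrays and 850.4 and 932 on the SMRTmRID arrays, and the difference of -0.10 did not pass (adjusted p = 0.179, limma). Its other bright probe set gave -0.22 and passed downward (adjusted p = 0.0222). Hk2, the isoform that HIF and insulin induce, fell from 410.3 and 378 to 328 and 291, without overlap of the arrays, a difference of -0.34 ± 0.091 (adjusted p = 0.00937, limma). Leaving out wild-type replicate 1 removed that call (adjusted p = 0.0557), as did leaving out SMRTmRID replicate 2 (0.0604).

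The phosphofructokinase genes, which encode the committed step of glycolysis, split by isoform. Pfkl, the liver-type subunit, rose from 1055 and 1036 to 2041 and 1957, and the SMRTmRID arrays stood far above the wild-type ones (difference 0.92 ± 0.051, adjusted p = 3.44e-07, limma). Pfkm, the muscle-type subunit, rose from 492 and 501 to 678 and 749.6, a difference of 0.51 ± 0.07 (adjusted p = 1.58e-04). Pfkp, the platelet-type subunit, fell from 355 and 380.2 to 283 and 264, a difference of -0.41 ± 0.088 (adjusted p = 0.00256). For none of the 3 genes did a wild-type array reach into the SMRTmRID range. A second bright probe set of Pfkl gave 0.92 and a dim one, with signals of 63.7 and 44.1 against 68.9 and 65.4, gave 0.26 and did not pass (adjusted p = 0.317). Pfkp passed on 1 of 2 probe sets above the filter, the dimmer of them giving -0.35 (adjusted p = 0.0746). Another Pfkp probe set, below the filter with signals of 12.7 and 36.4 against 46.9 and 44.4, gave 0.67, and the difference was -0.03 when all 3 were averaged, where the gene did not pass.

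The bifunctional enzymes that make fructose 2,6-bisphosphate, the activator of phosphofructokinase, also differed from each other. Pfkfb4 had signals of 67.2 and 86.3 on the wild-type arrays and 168 and 167 on the SMRTmRID arrays, and rose by 0.99 ± 0.16 (adjusted p = 4.17e-04, limma). Pfkfb3 had signals of 236 and 206 on the wild-type arrays and 187 and 178 on the SMRTmRID arrays, lower on both SMRTmRID arrays, but the difference of -0.26 ± 0.11 did not pass (adjusted p = 0.0756).

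The aldolase genes differed from each other. Aldoa, the main fibroblast aldolase, had signals of 4262 and 4423 on the wild-type arrays and 4346 and 4129.9 on the SMRTmRID arrays, overlapping between the genotypes (difference -0.035 ± 0.048, adjusted p = 0.541, limma). Aldoc, the brain-type aldolase, was dim, with 22.7 and 1.74 on the wild-type arrays and 62.5 and 68.6 on the SMRTmRID arrays. It passed with a difference of 1.64 ± 0.38 (adjusted p = 0.00405), a size that depends on the pseudocount, being 3.05 with a pseudocount of 1 and 0.78 with 64. Its wild-type arrays were themselves far apart.

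Tpi1, which interconverts the triose phosphates, rose from 3603 and 3521 to 5354 and 5325, and its other probe sets agreed in the call (difference 0.58 ± 0.044, adjusted p = 2.42e-06, limma). Pgk1, the first step of the pathway that yields ATP, rose from 5356 and 5042 to 7928 and 7211, a difference of 0.54 ± 0.057 (adjusted p = 2.41e-05). Pgam1, which moves the phosphate of phosphoglycerate, rose from 4766 and 4500.1 to 7037 and 6159, a difference of 0.51 ± 0.065 (adjusted p = 9.17e-05). In all 3 cases both SMRTmRID arrays were above both wild-type arrays, by similar amounts on the log2 scale. Of the 3 Pgk1 probe sets the dimmest gave 0.32 and did not pass (adjusted p = 0.095).

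Gapdh, the enzyme between Tpi1 and Pgk1 and a customary reference gene, was read only through the array's control probe sets, which were kept out of the test. Its 3′ control probe set had signals of 8999 and 9069 on the wild-type arrays and 9851 and 9043 on the SMRTmRID arrays, with overlap of the genotypes and a difference of 0.063. The middle and 5′ control probe sets gave 0.059 and 0.062. The 3′ signal divided by the 5′ signal, a check of RNA integrity, ranged from 0.755 to 0.773 over the 4 arrays. Gpi1 and Eno1 had no probe set of their own name here and are named only.

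Eno2, the neuronal-type enolase that HIF induces, had signals of 141 and 149 on the wild-type arrays and 189 and 172 on the SMRTmRID arrays, higher on both SMRTmRID arrays, but did not pass (difference 0.29 ± 0.12, adjusted p = 0.0668, limma). Pkm, the pyruvate kinase of fibroblasts, had 5874 and 6217 on the wild-type arrays and 5559 and 5330.1 on the SMRTmRID arrays and fell, with a difference of -0.15 ± 0.049 (adjusted p = 0.0216). The call did not survive leaving out wild-type replicate 2 (adjusted p = 0.162) or, separately, SMRTmRID replicate 2 (0.0865), and was also lost without a filter, without a variance trend and after quantile normalization.

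Lactate metabolism separated by gene. Ldha, the lactate dehydrogenase subunit that HIF induces, was level, with 5454 and 5293 on the wild-type arrays and 5497 and 5273 on the SMRTmRID arrays (difference 0.0030 ± 0.046, adjusted p = 0.958, limma). Ldhb, the heart-type subunit, rose from 769.9 and 759 to 1049 and 1038, without overlap, a difference of 0.44 ± 0.055 (adjusted p = 7.25e-05). Of 4 Ldhb probe sets 3 passed.

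The lactate and pyruvate transporters both rose. Slc16a1 (MCT1), which carries lactate in either direction, rose from 1227 and 1257 to 1785 and 1972, a difference of 0.59 ± 0.059 (adjusted p = 1.65e-05, limma). Slc16a3 (MCT4), the exporter of highly glycolytic cells and a HIF target, went from 10.1 and 1.81 in wild-type to 298 and 300.0 in SMRTmRID. This was a difference of 3.87 ± 0.23 (adjusted p = 5.56e-07). Its wild-type arrays were near the bottom of the signal range and its SMRTmRID arrays almost equal to each other. Because the wild-type signal is so low, the size is loose, at 5.75 with a pseudocount of 1 and 2.38 with 64.

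**Figure D2:**
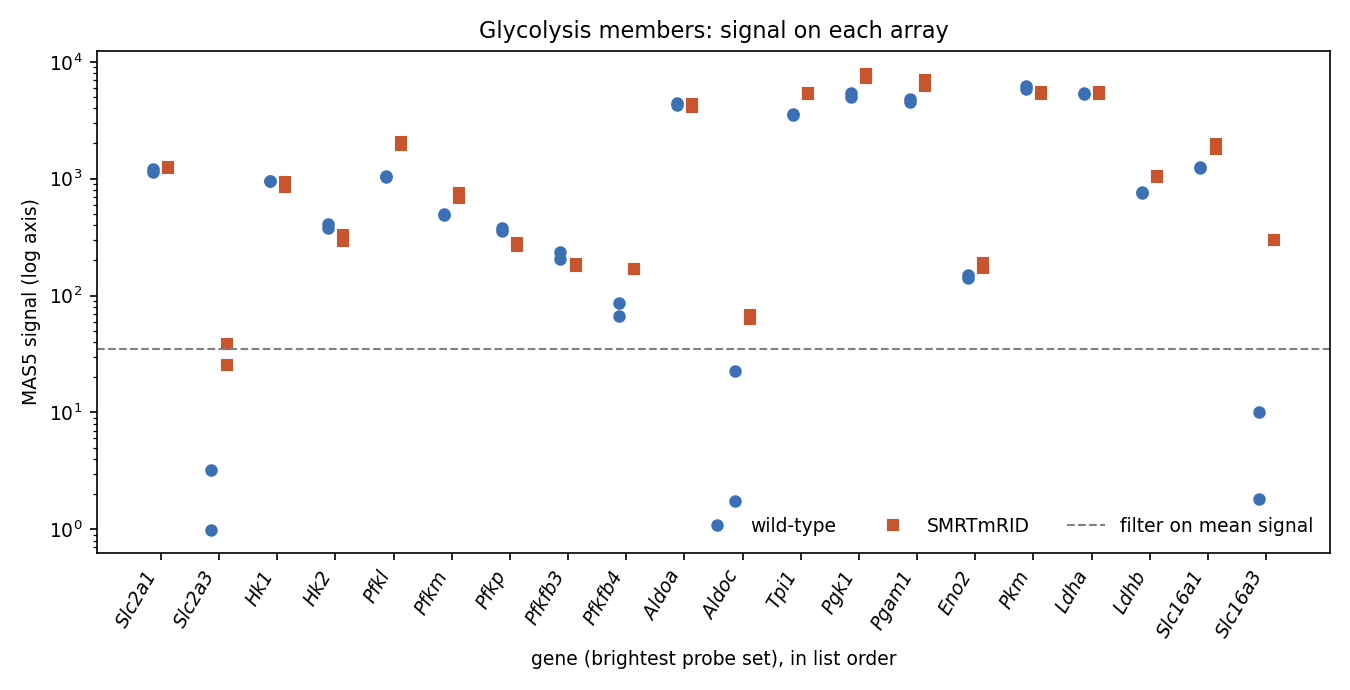
MAS5 signal (log axis) of the brightest probe set of each glycolysis member on each of the 2 wild-type arrays (circles) and 2 SMRTmRID arrays (squares), in list order; the dashed line is the filter on mean signal, 35.1. Slc16a3 shows the widest gap, 10.1 and 1.81 against 298 and 300.0, whereas the genotypes coincide at Aldoa and Ldha.

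All 3 HIF subunit genes rose. Hif1a had signals of 2197 and 2160.4 on the wild-type arrays and 4305 and 4184 on the SMRTmRID arrays, a difference of 0.96 ± 0.045 (adjusted p = 1.28e-07, limma). Epas1, the gene of HIF-2alpha, rose from 124 and 125 to 414 and 440.3, a difference of 1.66 ± 0.10 (adjusted p = 5.63e-07). Arnt, the partner of both, rose from 360.4 and 357 to 685 and 613, a difference of 0.83 ± 0.077 (adjusted p = 1.04e-05). No wild-type array reached a SMRTmRID array in any of them. The other bright probe sets of Hif1a gave 1.22 and 1.27. A dimmer probe set of Epas1 gave 0.87, with 26.8 and 42.9 on the wild-type arrays and 75.8 and 76.3 on the SMRTmRID arrays. Its wild-type mean lay just below the filter of 35.1, so it was tested only through its SMRTmRID signals. Arnt was less even, since of 4 probe sets above the filter 2 passed. The 2 whose names carry no a, s or x suffix gave 0.47 (adjusted p = 0.0942, limma) and 0.043 (adjusted p = 0.877). Averaged over all probe sets, with a dim one below the filter at -0.39 included, Arnt had 0.27 and did not pass (adjusted p = 0.087).

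The prolyl hydroxylases, which mark HIF-alpha for degradation, went 3 ways. Egln3, itself strongly induced by HIF, rose from 48.2 and 37.1 to 166 and 120.1, a difference of 1.43 ± 0.21 (adjusted p = 2.23e-04, limma). Its other probe set gave 1.78, with 16.9 and 14.6 on the wild-type arrays and 82.2 and 104.6 on the SMRTmRID arrays. The wild-type signals of that probe set were below the filter of 35.1, so it was tested only through its SMRTmRID signals. Egln2 fell from 727 and 713 to 486 and 443, a difference of -0.62 ± 0.07 (adjusted p = 4.00e-05). Egln1, the main oxygen sensor of the family, had 727 and 919 on the wild-type arrays and 861 and 890.2 on the SMRTmRID arrays, overlapping, with a difference of 0.10 ± 0.10 that did not pass (adjusted p = 0.398). The wild-type arrays of Egln1 differed from each other, and leaving out wild-type replicate 2 gave 0.26, which passed (adjusted p = 0.00999). Its other probe set gave 0.32 and passed (adjusted p = 0.00327; of all probe sets above the filter tested singly, 61.1% passed). Vhl, which recognises the hydroxylated subunit, rose from 383 and 385 to 526 and 511, a difference of 0.42 ± 0.07 (adjusted p = 5.78e-04).

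HIF targets moved in both directions. Of 10 genes listed as targets and tested, 5 rose, all by 2-fold or more, and 3 fell, leaving 2 below the threshold. Hk2, Eno2, Ldha, Slc16a3 and Egln3, described above as induced by HIF, were listed under other roles and are not among the 10. Of those, Slc16a3 and Egln3 rose, Hk2 fell, and Eno2 and Ldha did not pass. Among all tested genes 9.69% rose and 6.79% fell at least 2-fold. Over all members, HIF subunits, hydroxylases and the glycolysis members included, 9 rose that far and 0 fell that far (limma). Another 7 members fell at a smaller size. Slc16a3 and Aldoc, among the 9, had wild-type means of 5.97 and 12.2, below the filter of 35.1. They were tested only through their SMRTmRID signals and so could count only as higher. Car12, among the 7, was tested only through its wild-type signals, with a SMRTmRID mean of 22.5.

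Adm, which encodes the vasodilator peptide adrenomedullin, rose from 187 and 172 to 814 and 831, a difference of 2.10 ± 0.08 (adjusted p = 3.24e-08, limma). Ankrd37, a small ankyrin-repeat gene known chiefly as a HIF target, rose from 31.3 and 39.4 to 144 and 149, a difference of 1.67 ± 0.19 (adjusted p = 3.64e-05). Both are among the genes whose promoter windows are printed above, and for both every SMRTmRID array was well above the wild-type arrays. Bnip3, a mitochondrial protein that promotes mitophagy, rose from 642 and 631 to 1788 and 1885, a difference of 1.51 ± 0.055 (adjusted p = 2.53e-08). Vegfa, the endothelial growth factor, rose from 286 and 316 to 741 and 855, a difference of 1.36 ± 0.088 (adjusted p = 9.57e-07), and its other probe set gave 1.06. Kdm3a, a histone H3 lysine demethylase, rose from 249.8 and 252 to 681 and 572, a difference of 1.26 ± 0.094 (adjusted p = 2.31e-06). The SMRTmRID arrays of Kdm3a and Vegfa were further apart than those of Bnip3, though none came near the wild-type range. With a pseudocount of 64 the difference of Ankrd37 was 1.09 and that of Egln3 0.95.

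Ndrg1, a stress-responsive gene that low oxygen induces in many cells, went the other way. It fell from 1162 and 1079.8 to 597 and 594, a difference of -0.89 ± 0.061 (adjusted p = 1.32e-06, limma), and all of its 5 probe sets passed downward. Ddit4 (REDD1), an inhibitor of mTORC1, fell from 1221 and 1302 to 1080.0 and 1096, a difference of -0.21 ± 0.055 (adjusted p = 0.00778), which missed the threshold without wild-type replicate 2 (adjusted p = 0.055) or without a variance trend (0.0644), and also when each chromosome was centred on its median (0.180). The carbonic anhydrase genes, which regulate pH at the cell surface, were dim. Car12 went from 49.4 and 48.5 to 16.05 and 29.01, a difference of -0.77 ± 0.29 (adjusted p = 0.0386), and was not called without wild-type replicate 1 (adjusted p = 0.116), wild-type replicate 2 (0.113) or SMRTmRID replicate 1 (0.189). Car12 also missed the threshold without a filter and with a pseudocount of 1, where its difference was -1.14. Car9, a widely used marker of HIF-1 activity, had signals of 20.7 and 22.8 on the wild-type arrays and 16.5 and 12.8 on the SMRTmRID arrays and was below the filter. Bnip3l had no probe set of its own name here.

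**Figure D3:**
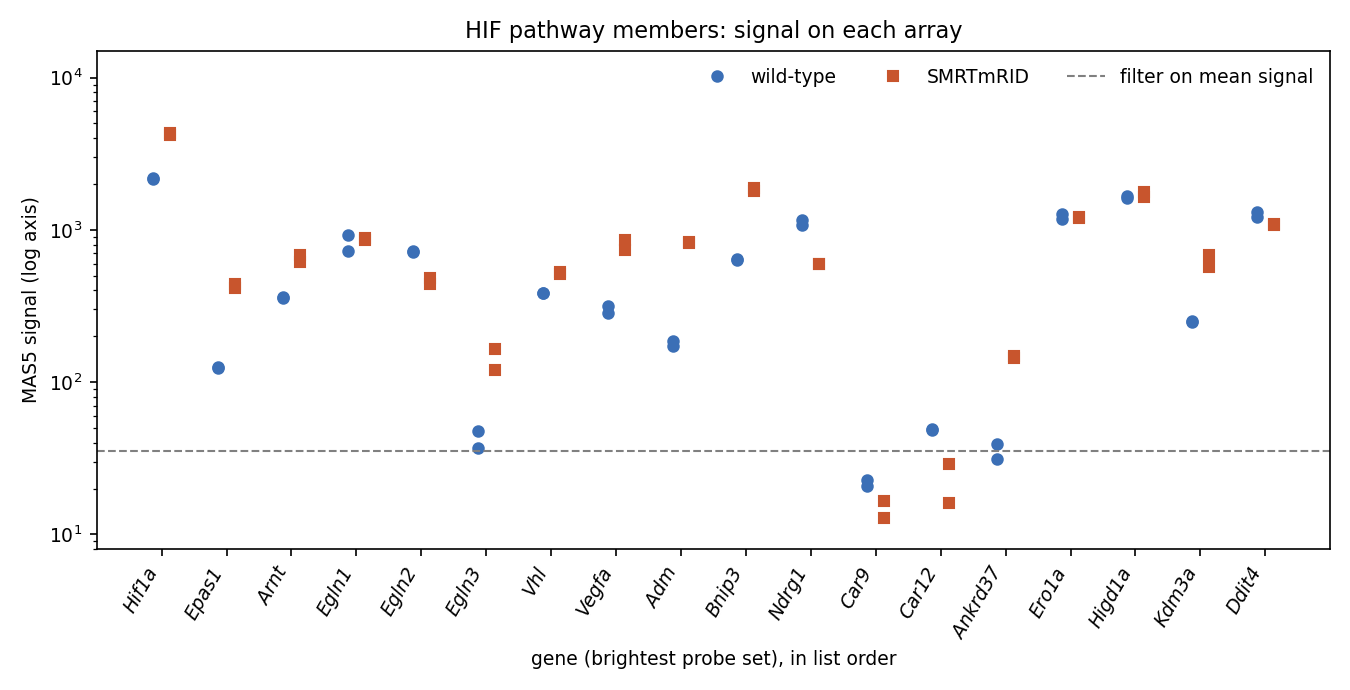
MAS5 signal (log axis) of the brightest probe set of each HIF pathway member on the 2 wild-type arrays (circles) and 2 SMRTmRID arrays (squares), in list order from the subunits to the targets; the dashed line is the filter on mean signal, 35.1. The subunits Hif1a, Epas1 and Arnt lie higher in SMRTmRID, as do Vegfa, Adm, Bnip3, Ankrd37 and Kdm3a, whereas Egln2, Ndrg1, Car12 and Ddit4 lie lower.

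Ero1a and Higd1a did not pass on their brightest probe sets but passed upward on others, Ero1a on both and Higd1a on 1 of 2. Ero1a, an oxidase of the endoplasmic reticulum, had 1187 and 1270.2 on the wild-type arrays and 1201 and 1223 on the SMRTmRID arrays on its brightest probe set (difference -0.019 ± 0.055, adjusted p = 0.784, limma). A second probe set had 379.8 and 379 on the wild-type arrays and 939.8 and 996 on the SMRTmRID arrays, a difference of 1.32 (adjusted p = 4.24e-07), and the third gave 1.04 (adjusted p = 3.28e-06). Higd1a, a mitochondrial protein of the hypoxia-inducible domain family, had 1623 and 1667 on the wild-type arrays and 1767 and 1640.0 on the SMRTmRID arrays on the brightest (difference 0.049 ± 0.054, adjusted p = 0.447), overlapping. Its second-brightest had 135 and 117 on the wild-type arrays and 270.5 and 243 on the SMRTmRID arrays, a difference of 0.94 (adjusted p = 1.48e-04), and the third, a dim one, gave 0.45 and did not pass (adjusted p = 0.152). Which transcript each probe set reads was not analysed here.

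Of the members, 20 had more than 1 probe set above the filter, and for 11 of them all probe sets shared an outcome. Among these 11 were Slc2a1, Pfkfb3 and Aldoa, for which no probe set passed. The other 9, Arnt, Egln1, Ero1a, Higd1a, Hk1, Ldhb, Pfkl, Pfkp and Pgk1, mixed called and uncalled probe sets, and in 0 of the 20 did probe sets pass in opposite directions (limma, each probe set tested singly, where 61.1% of 20078 probe sets passed).

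**Figure D4:**
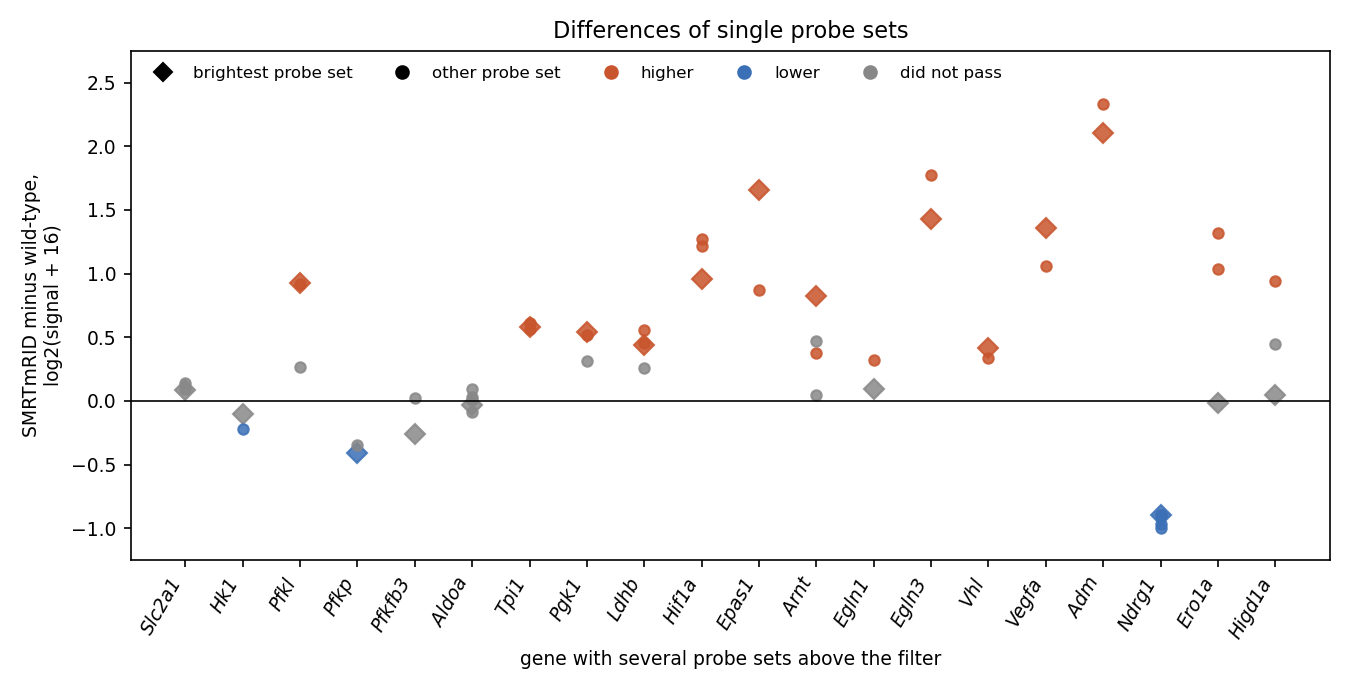
Difference between SMRTmRID and wild-type on the log2(signal + 16) scale for every probe set above the filter of the 20 members with several; diamonds are the brightest probe set and colour gives the outcome of the test. The probe sets of Ero1a and Higd1a spread from near 0 to 1.32 and 0.94, while those of Ndrg1 are all below 0.

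Chromosome 7 carries 5 tested members and was the chromosome with the lowest median difference, at -0.54 over 814 tested genes. Of those genes 61.4% fell and 9.34% rose. Adm and Bnip3, at 2.10 and 1.51, were above 98.8% and 98.2% of the tested genes of that chromosome. Aldoa and Ldha, level between the genotypes, were above 76.5% and 77.8% of them, and Egln2, which fell, stood near the middle with 45.2% below it. When each array was centred on the median of the tested genes of the same chromosome, Aldoa had a difference of 0.53 and Ldha of 0.57, both passing, and Egln2 of -0.049 (adjusted p = 0.546). Pgk1 lies on the X chromosome, whose median difference was 0.35, and had -0.019 (adjusted p = 0.782) with that centring. Vhl, on chromosome 6, and Ddit4, on chromosome 10, also missed the threshold under it, at 0.16 (adjusted p = 0.0965) and -0.095 (adjusted p = 0.180). Hk2, Tpi1 and Ldhb stayed called but moved by over 1.5 times, to -0.59, 0.32 and 0.18. Of the members not called otherwise, Slc2a1 (0.16), Pfkfb3 (-0.34), Egln1 (0.33) and Ero1a (-0.18) passed with it as well. What sets the level of a chromosome was not tested. Without the genes of chromosome 7 the median differences were 0.51 for glycolysis and 0.62 for the HIF pathway.

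**Figure D5:**
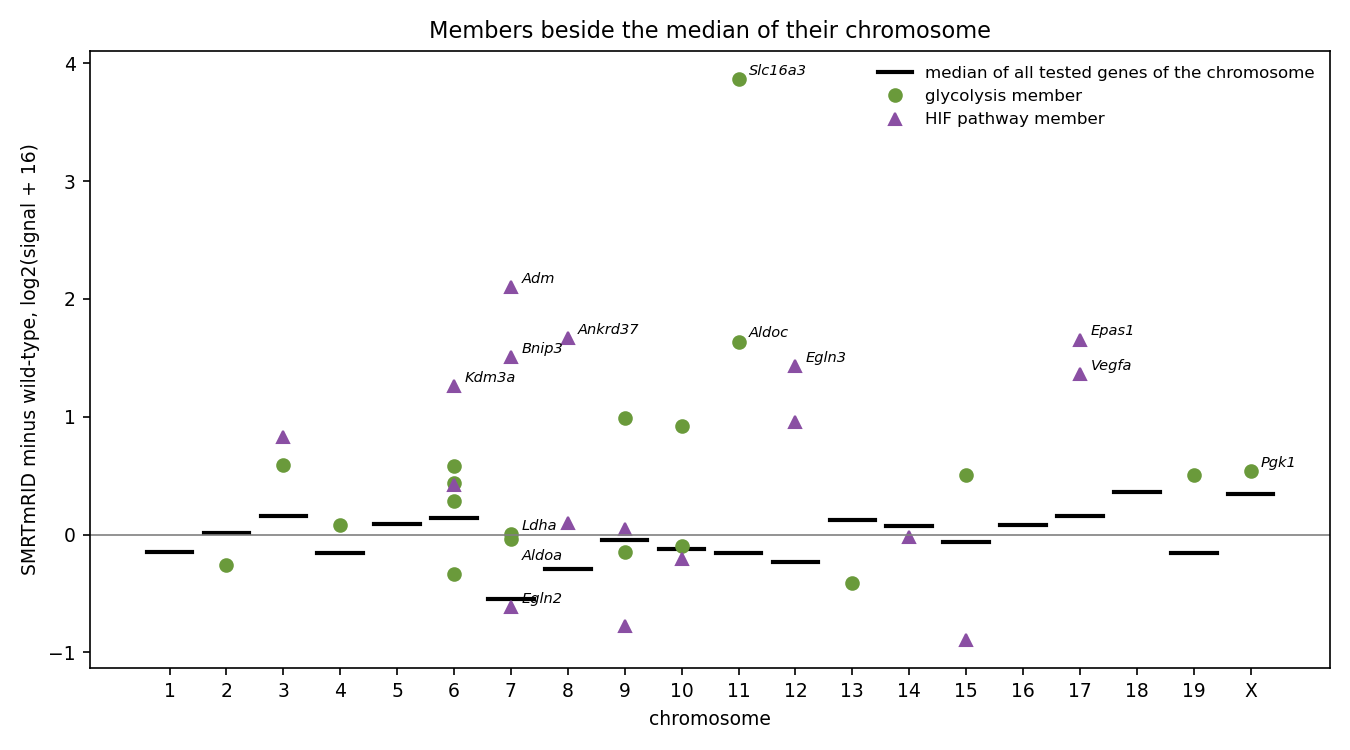
Difference between SMRTmRID and wild-type on the log2(signal + 16) scale for each tested member, placed by chromosome; circles are glycolysis members, triangles HIF pathway members, and bars the median of all tested genes of the chromosome. On chromosome 7, with a median of -0.54, Adm and Bnip3 stand far above the bar, Aldoa and Ldha above it and Egln2 near it.

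Further genes around the same pathways were read from lists drawn up with the members. Of 21 other genes of glucose metabolism tested, 10 rose and 6 fell, and the median difference was 0.30 (limma). The share called was 76.2%, against 65.2% of all tested genes, of which 30.3% rose and 35.0% fell. The 3 pentose phosphate genes tested fell, while G6pdx, the entry enzyme, had no probe set of its own name here. Taldo1 (transaldolase) went from 1402 and 1497 to 505 and 489, a difference of -1.51 ± 0.06, and Pgd, which makes ribulose 5-phosphate and NADPH, from 2652 and 2984 to 1357 and 1415, a difference of -1.01 ± 0.062. Tkt (transketolase) had a difference of -0.76 ± 0.058. Each was lower on both SMRTmRID arrays than on any wild-type array.

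Glycogen genes were higher or did not pass. Of 7 tested 5 rose and 0 fell (limma), where 30.3% of all tested genes rose and 35.0% fell. Pygl, a glycogen phosphorylase, went from 24.3 and 24.3 to 184 and 158, a difference of 2.21 ± 0.19, while Pgm1, Ugp2, Gbe1 and Gys1, which lead from glucose phosphate to glycogen, rose by 0.86, 0.61, 0.58 and 0.56. Pygb and Pgm2 had -0.019 and -0.22 and did not pass. Gfpt1, which opens the hexosamine branch, rose by 1.16 ± 0.054 and the transporter gene Slc2a6 by 1.16 ± 0.25. Pygl and Slc2a6 had wild-type means of 24.3 and 31.6, below the filter of 35.1, and were tested only through their SMRTmRID signals. Pfkfb2, of the same family as Pfkfb3 and Pfkfb4, fell from 181 and 179.5 to 43.7 and 66.0, a difference of -1.49 ± 0.19. Tkt, Pgm1, Ugp2, Gbe1, Gys1, Pygb and Pgm2 are named to describe their lists and were picked with their values in view.

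Of 43 other genes of the HIF pathway tested, 17 rose and 10 fell, and the median difference was 0.17 (limma). The share called, 62.8%, was near the 65.2% of all tested genes, of which 30.3% rose and 35.0% fell. Among the 10 regulators 2 rose and 4 fell; Arnt2, a relative of Arnt, fell from 531 and 563 to 211 and 213, a difference of -1.30 ± 0.082. Among 33 further targets 15 rose and 6 fell, with a median difference of 0.24. Pdk1, the kinase that keeps pyruvate out of the mitochondrial cycle, rose from 410.2 and 406 to 1104 and 1123, a difference of 1.41 ± 0.06, and Ak4, a mitochondrial adenylate kinase, by 1.51 ± 0.15. Tmem45a and Errfi1, a feedback inhibitor of the EGF receptor, rose by 1.64 ± 0.07 and 1.06 ± 0.053. Angptl4 and Rora rose by 4.05 and 2.55. The wild-type mean of Rora, 30.9, was below the filter of 35.1, so it was tested only through its SMRTmRID signals. In the other direction Ier3, an early stress gene, went from 4991 and 5096 to 1994 and 2163, a difference of -1.27 ± 0.052, and Stc2, which encodes the glycoprotein stanniocalcin 2, had a difference of -1.09 ± 0.14. Pfkfb2 belongs to this list too.

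The arrays of a genotype resembled each other more than those of the other genotype. Pearson's r across the tested genes was 0.991 within each genotype and 0.860 to 0.861 between them. Of 10 fibroblast markers, all tested, 6 were higher in SMRTmRID, 3 lower and 1 not called, where 65.2% of all tested genes passed. The lower ones were Fn1, Vim and S100a4, the last with the widest difference of the 3, -0.31. Thy1 was near the floor in wild-type, at 20.6 and 6.57 against 3172 and 3184 in SMRTmRID, and Dcn low, at 60.9 and 63.7 against 8878 and 8777. Pdgfra, a receptor of fibroblast precursors, had 247 and 262 on the wild-type arrays and 4828 and 5090.5 on the SMRTmRID arrays, and Pdgfrb had a difference of 1.78 (limma). The 5 epithelial markers summed to signals between 199 and 312 on every array and the 5 endothelial ones to between 73.3 and 80.5, with 1 and 0 above the filter. The 5 blood cell markers summed to 106 to 111 in wild-type and 179 to 193 in SMRTmRID, with Ptprc between 1.01 and 11.9. Of these Lyz2 passed, at 27.4 and 15.6 against 105 and 95.3, a difference of 1.65 (adjusted p = 2.66e-04, limma). Thy1 and Lyz2 had wild-type means of 13.6 and 21.5, below the filter of 35.1. Both were tested only through their SMRTmRID signals and so could count only as higher. The 3 adipocyte markers named here summed to 200.4 and 222 on the wild-type arrays and 1345 and 1422 on the SMRTmRID arrays, nearly all of it Fabp4. The part of these differences in the results was not tested. In bulk RNA, fewer cells of a type and less RNA per cell cannot be told apart.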

How the data were processed

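The deposited values are intensities on a linear scale, 1 per probe set and array, computed with MAS5 per the submitters' processing notes; the MAS5 version was not given in the sources used here. Trimmed by 2% at each end, the mean signal of each array was 200.0. Detection calls were not used here. Of 45101 probe sets, 64 controls were left out, 34945 carried a single gene symbol, 932 carried more and went unnamed, and 9160 carried none here. Symbols were updated by gene ID to GRCm38.p6, where 34741 named probe sets matched. A gene was its brightest probe set, tested when its mean signal exceeded the median of all values (35.1). The comparison of genotypes used R 4.3.3 and limma 3.58.1 (lmFit; eBayes with trend) on log2(signal + 16) over 11056 genes, two-sided, with Benjamini-Hochberg adjustment at 0.05. On data simulated for these 11056 genes, 70.1% of 67 genes changed 1.5-fold, 95.5% of 67 changed 2-fold and all 66 changed 4-fold were recovered. False calls made up 5.85% of those made. The simulated noise followed the variances fitted to these arrays, so it held no variation between lines. Only those genes were changed in it, far fewer than the 65.2% called in the data, and both shares depend on that. Members, lists and tests were chosen with earlier results of these data known. Arrays were named by genotype and replicate number, which do not pair them. All 42 members are accounted for. Values on every array were given for called members with a difference of at least 0.5, for HIF subunits, hydroxylases, Vhl and Gapdh, and for further members chosen for description; of the lists of other glucose and HIF pathway genes, called genes with a difference of at least 1 were named. Promoters came from RefSeq (GRCm38.p6), where all members but Slc2a3, Epas1, Bnip3l and Ndrg1 matched. The number of arrays limits the precision. Alternatives are described in the closing section. Figures were drawn with matplotlib 3.10.9.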

Additional observations from a re-analysis of the deposited data

How the results depend on the processing

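Over 17 alternatives, of which the second-brightest probe set was added after seeing the data, 17 of the 27 called members kept direction and call in every alternative that tested them. The other 10 lost the call in at least 1: Hk2, Pfkl, Pfkp, Pgk1, Pkm, Arnt, Egln2, Vhl, Car12 and Ddit4. Members with only 1 probe set kept it under the second-brightest, averaged and suffix-free choices, which could not change their difference. Aldoc, which kept its call, was tested in 13 of the 17 alternatives and in none that brought in its other probe set. All 9 members that were not called passed in at least 1 alternative. The count of called genes ranged from 5189 to 7418. Called glycolysis members ranged from 10 to 16 and called HIF members from 11 to 16. The lowest counts came with the filter at the 75th percentile, where fewer genes and 14 members of each group were tested. Without chromosome 7 the HIF count was also 11, of 14 tested. The HIF median stayed above the glycolysis median in all 17. The glycolysis and HIF medians were 0.32 and 0.66 with chromosome centring, 0.26 and 0.62 above the 75th percentile, 0.30 and 0.92 with probe sets averaged, 0.47 and 0.62 without a filter, 0.29 and 1.00 with the second-brightest probe set, 0.28 and 0.47 with suffix-free probe sets, and 0.51 and 0.62 without chromosome 7. The glycolysis median was 0.42 with a pseudocount of 64 and 0.48 after quantile normalization. Leaving out an array gave 0.41 to 0.45 and 0.75 to 0.90. The replicate number as a block, which does not pair the arrays (their deviations correlated at 0.012), gave 7418 called genes and changed no member's call. Reversed differences were, with chromosome centring, Hk1 0.014, Aldoa 0.53, Pgk1 -0.019 and Higd1a -0.015; with averaged probe sets, Aldoa 0.0018 and Ero1a 0.78; with median centring, Ldha -0.0065; with quantile normalization, Aldoa 0.10 and Ero1a 0.026; with the second-brightest probe set, Pfkfb3 0.024 and Ero1a 1.32. Leaving out each array in turn, differences changed sign within -0.072 to 0.0013 for Aldoa, -0.027 to 0.033 for Ldha, -0.068 to 0.26 for Egln1, -0.067 to 0.030 for Ero1a and -0.0039 to 0.10 for Higd1a. The cause was not tested. Signals near the floor, as for Slc16a3, Aldoc and Car12, make the size of a difference loose. Below the filter, the other Aldoc probe set gave -0.20, against 1.64 on the brightest. The other Car12 probe sets, also below the filter, gave 0.21 and 0.057, against -0.77.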
